A study of Homo sapiens with 6 samples.

Results

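Tetraspanins are small membrane proteins that gather integrins, immunoglobulin-superfamily proteins, claudins and proteases into patches of the plasma membrane and of endosomes. They carry a large extracellular loop with a conserved cysteine-cysteine-glycine (CCG) motif, are anchored to one another through fatty acids on cysteines, and are widely used as markers of extracellular vesicles. In epithelial cancers some members (CD151, TSPAN8) are known for links with migration and others (CD82) as suppressors of metastasis. The 10 members described here are CD9, CD63, CD81, CD82, CD151, TSPAN1, TSPAN3, TSPAN8, TSPAN13 and TSPAN15, found by symbol among the 15832 genes of the table. They were chosen partly from the measured values, because CD9 was among the largest falls, so the values of siVCPIP1 against siControl for these genes are a description, with no p-value for any member.

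The siVCPIP1 group held 3 libraries of AsPC-1 cells 48 h after transfection with an siRNA against VCPIP1, the gene of a deubiquitinase named for its binding to the ATPase VCP. The siControl group held 3 libraries of the same cells transfected with a control siRNA. AsPC-1 is a human pancreatic cancer line, so all libraries share 1 genetic background, and the study's title concerns pancreatic cancer and Hippo/YAP signalling. The labels leave unsaid whether replicates are separate cultures, so p-values reflect only how far these libraries differ among themselves, possibly for technical reasons. Values are TPM, a relative abundance scaled by transcript length, so levels can be compared between genes. The read depth of each library is unknown.

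The libraries differed as a whole. The median TPM over all genes was 1.24 to 2.26 in siVCPIP1 and 6.18 to 7.44 in siControl, and replicate 3 had the highest of the siVCPIP1 values. The targeted gene, VCPIP1, was at 0.12, 0.11 and 0.27 TPM in siVCPIP1 and at 2.93, 3.06 and 2.24 TPM in siControl (log2 change -1.68, SE 0.13). The limma adjusted p was 2.0e-05, and a two-sided exact permutation test gave 0.1, which is the least that 3 against 3 can reach. After a correction for the GC content and length of transcripts, described with the scalings further on, its log2 change was 0.27 and did not pass the threshold at a pseudocount of 1, and was -0.55 and past it at a pseudocount of 0.1. The labelled carcinoma cell showed its epithelial markers: of a list of 10, all were in the table and 9 averaged at least 1 TPM. The list, mostly the keratins KRT8, KRT18 and KRT19, summed to 21096 to 23836 TPM in siVCPIP1 and 14077 to 16197 TPM in siControl. Against that sum, 5 of the 9 tested fell (EPCAM, CDH1, MUC1, CEACAM6 and CLDN4) and the 4 keratins rose, and CDH1, encoding E-cadherin, was at 0.677 ± 0.570 TPM in siVCPIP1 and 28.9 ± 2.41 TPM in siControl. Of 8 leukocyte markers, CORO1A alone averaged 1 TPM or more, and the 5 in the table summed to 3.81 to 4.14 TPM in siVCPIP1 and 3.73 to 4.30 TPM in siControl. Endothelial markers (3 of 6 in the table) summed to 0.42 to 0.60 TPM in siVCPIP1 and 1.13 to 1.44 TPM in siControl. Fibroblast markers (6 of 7 in the table) summed to at most 4.51 TPM in siVCPIP1 and 45.3 to 69.0 TPM in siControl, and LUM was the 1 marker among them that averaged 1 TPM or more. No marker in the table was at 0 in all 6 libraries, and the part of these markers in the results was not tested.

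Each of the 10 coding sequences holds 2 cysteine codons followed by a glycine codon, the CCG motif of the large extracellular loop, between codons 128 and 156. The stretches are shown because they are the feature common to genes whose levels differed between the groups in opposite directions. They come from GENCODE release 29 transcripts (GRCh38), with the 9 bases of the motif in capitals, and the coordinates run over the intron where a stretch spans 2 exons.
CD9 (chr12:6235322-6235499, + strand, exons 6 and 7): tatgcgttgaacTGCTGTGGTttggctggg
TSPAN8 (chr12:71132801-71137958, - strand, exons 9 and 10): gaagagtttaaaTGCTGCGGTttggtcaat
TSPAN3 (chr15:77052906-77054183, - strand, exons 4 and 5): agacagctgcatTGTTGTGGAattcacaac
TSPAN13 (chr7:16777855-16777884, + strand, exon 4): agaaatctaaacTGCTGTGGGttccgaagt
CD82 (chr11:44615368-44618185, + strand, exons 7 and 8): gctcaggtgaagTGCTGCGGCtgggtcagc
TSPAN15 (chr10:69495684-69498303, + strand, exons 4 and 5): aaaaagttcaagTGCTGTGGCggggaggac
TSPAN1 (chr1:46184878-46184983, + strand, exons 6 and 7): aaagggctcaagTGCTGTGGCttcaccaac
CD63 (chr12:55726238-55726705, - strand, exons 5 and 6): gcagattttaagTGCTGTGGGgctgctaac
CD81 (chr11:2395515-2395892, + strand, exons 5 and 6): gagacgcttgacTGCTGTGGCtccagcaca
CD151 (chr11:837349-837483, + strand, exons 6 and 7): caggagttccacTGCTGTGGCagcaacaac
CD81, CD82 and CD151 lie on chromosome 11 and CD9, CD63 and TSPAN8 on chromosome 12. In 9 of the 10 the stretch spans an exon boundary that lies 6 bases before the first cysteine codon, and TSPAN13 is the exception, with the whole stretch in exon 4. Codon choice within the motif differs: TSPAN3 ends 0 of the 3 codons in G or C, CD9 ends 1, CD82 ends 3, and the other members end 2. A further 4 in-frame runs of 2 cysteine codons and a glycine codon, not always the same codons, lie outside the loop. They are at codon 78 of CD9, 72 of CD63, 74 of TSPAN8 and 227 of CD81.

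Promoter windows of 300 bases (250 before the start, 50 after) from RefSeq (GRCh38.p14) were matched by symbol for 7 of the 10 members, CD9, CD63, CD82, TSPAN1, TSPAN8, TSPAN13 and TSPAN15, with CD81, CD151 and TSPAN3 not matched. Of the 7, CD9 has 4 windows, CD63 has 8, TSPAN8 has 2 and the others have 1. The windows of TSPAN13, whose TPM was lower in siVCPIP1, and TSPAN1, whose TPM was about level, are printed since neither requires a choice between starts. Capitals mark the GC box, GGGCGG or CCGCCC.
TSPAN13 (chr7:16753505-16753804, + strand): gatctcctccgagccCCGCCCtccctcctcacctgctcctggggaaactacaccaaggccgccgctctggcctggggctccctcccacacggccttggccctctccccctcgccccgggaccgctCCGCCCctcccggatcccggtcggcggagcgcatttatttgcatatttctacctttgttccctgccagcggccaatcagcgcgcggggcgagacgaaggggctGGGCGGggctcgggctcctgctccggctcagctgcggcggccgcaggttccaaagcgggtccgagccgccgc
TSPAN1 (chr1:46174837-46175136, + strand): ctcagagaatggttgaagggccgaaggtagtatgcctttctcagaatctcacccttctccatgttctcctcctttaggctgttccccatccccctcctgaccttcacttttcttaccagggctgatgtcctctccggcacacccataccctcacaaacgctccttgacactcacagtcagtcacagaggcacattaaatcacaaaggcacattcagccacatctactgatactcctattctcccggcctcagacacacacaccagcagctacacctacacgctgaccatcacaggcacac
The TSPAN13 window has a GC content of 71.3%, 30 CpG and 3 GC boxes, and the TSPAN1 window has a GC content of 52.0%, 5 CpG and no GC box. This is the opposite order to their transcripts, at 44.4% GC for TSPAN13 and 52.0% for TSPAN1. Over the 18 windows of the 7 members, 11 hold a GC box, against 45.0% of 35116 promoters. The core letters of the TEAD motif (GGAATG or CATTCC) lie in 4 of the 18 windows, 3 of CD63 and 1 of TSPAN8, against 14.0% of all promoters, and the AP-1 letters (TGACTCA or TGAGTCA) in 1, a window of CD63, against 4.95%. Several windows of 1 gene overlap or lie close together, and a match of letters is a description, not a binding site.

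In siControl the members covered a wide range of levels. CD63, a tetraspanin of late endosomes and lysosomes that helps to load cargo into intraluminal vesicles, was the highest, at 1227 ± 62.0 TPM in siControl (SD, n = 3), a level exceeded by 129 of the 15832 genes. CD151, which binds laminin-binding integrins, followed at 479.0 ± 72.9 TPM, and CD81, a partner of EWI proteins, at a mean of 416.3 TPM (399.37 to 431.13 TPM). CD82 averaged 160.6 ± 10.5, TSPAN1 158.0 ± 11.8, CD9 136.6 ± 11.9 and TSPAN3 112.9 ± 13.1 TPM in siControl. TSPAN8 was at 64.8 ± 7.51, TSPAN15 at 26.4 ± 1.22 and TSPAN13 at 2.72 ± 0.54 TPM.

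The siControl libraries did not overlap between CD63 and CD151, CD81 and CD82, TSPAN3 and TSPAN8, TSPAN8 and TSPAN15, or TSPAN15 and TSPAN13, the widest gap, at 9.72 times. CD151 and CD81 overlapped in range, although CD151 was above CD81 in each library. CD82 overlapped with TSPAN1, TSPAN1 with CD9 and CD9 with TSPAN3, and the ranks of CD82, TSPAN1 and CD9 changed between siControl libraries. In siVCPIP1 the order of the first 3 was the same, while CD9 was at rank 8 in siVCPIP1 and rank 6 in siControl, and TSPAN15 was at rank 6 in siVCPIP1 and rank 9 in siControl. The plot of TPM by library shows these levels in the order of siControl.

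**Figure D1:**
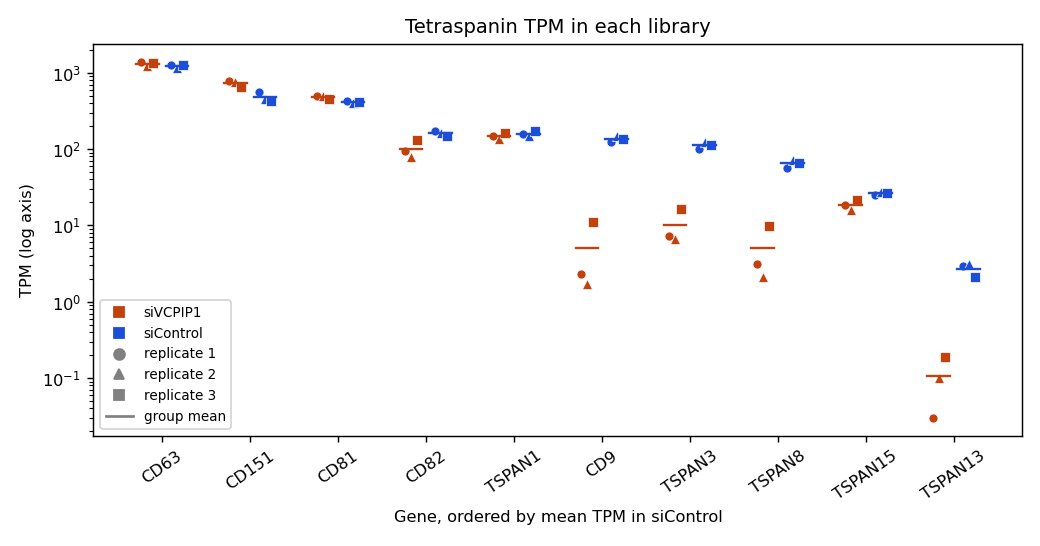
TPM of the 10 tetraspanins in each of the 6 libraries (log axis), with siVCPIP1 in red-brown left of siControl in blue, symbols for replicates and a line at each group mean. CD9, at 1.70 to 11.13 TPM in siVCPIP1 and 124.61 to 148.33 TPM in siControl, is among the genes whose groups lie far apart, and CD63 and TSPAN1 overlap.

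CD9 and CD81 are close relatives that bind the same immunoglobulin-superfamily partners at the plasma membrane, and CD9 is also known for its part in gamete fusion. CD9 was at 2.31, 1.70 and 11.13 TPM in siVCPIP1 and at 124.61, 148.33 and 136.94 TPM in siControl. Every siVCPIP1 library was far lower, and replicate 3 stood above the other siVCPIP1 libraries, at 5.55 times their mean. The siVCPIP1 mean was 3.69% of the siControl mean, a log2 change of -4.85 (SE 0.49), and 8 of 10966 genes had a lower one. Log2 changes throughout are siVCPIP1 minus siControl of TPM + 1, a scale that shrinks the changes of genes at low levels. Without siVCPIP1 replicate 3 the siVCPIP1 mean of CD9 was 2.01 TPM, 1.47% of the siControl mean, and the log2 change was -5.52. CD81 was at 490.49, 499.02 and 452.95 TPM in siVCPIP1 and at 431.13, 399.37 and 418.47 TPM in siControl, a log2 change of 0.21 (SE 0.11). Its groups did not overlap, with siVCPIP1 higher, while the GC and length correction turned the difference to -0.29. In bulk RNA, fewer cells with a transcript and less of it per cell cannot be told apart.

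CD151 and CD82 both associate with integrins, CD151 tightly with the laminin-binding ones, and CD82 was identified as a suppressor of metastasis. CD151 was at 784.16, 760.55 and 655.90 TPM in siVCPIP1 and at 560.56, 456.03 and 420.35 TPM in siControl. All siVCPIP1 libraries were higher, with a siVCPIP1 mean of 153.1% of the siControl mean and a log2 change of 0.62 (SE 0.14), although after the GC and length correction it was 0.15. CD82 was at 93.89, 79.57 and 129.80 TPM in siVCPIP1 and at 170.24, 162.23 and 149.44 TPM in siControl. Its groups did not overlap, and the siVCPIP1 mean was 62.9% of the siControl mean (log2 change -0.69, SE 0.18), while median-of-ratios scaling turned the direction, to 0.53.

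CD63 and TSPAN3 are found in endosomal membranes, and CD63 is a standard marker of exosomes. CD63 was at 1390.38, 1234.48 and 1332.73 TPM in siVCPIP1 and at 1266.16, 1155.62 and 1259.73 TPM in siControl, so the groups overlapped (log2 change 0.10, SE 0.11). TSPAN3 was at 7.34, 6.71 and 16.40 TPM in siVCPIP1 and at 99.07, 125.01 and 114.62 TPM in siControl. Every siVCPIP1 library of TSPAN3 was lower, replicate 3 the least so, and the siVCPIP1 mean was 8.99% of the siControl mean (log2 change -3.45, SE 0.30).

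TSPAN8 and TSPAN1 are both raised in many gastrointestinal carcinomas, and TSPAN8 is known from rat pancreatic tumour models for its links with metastasis. TSPAN8 was at 3.08, 2.14 and 9.81 TPM in siVCPIP1 and at 56.81, 71.73 and 65.79 TPM in siControl. The groups were far apart, with a siVCPIP1 mean of 7.73% of the siControl mean (log2 change -3.66, SE 0.41) and replicate 3 again the highest siVCPIP1 library, at 3.76 times the mean of the others; without it the change was -4.19. TSPAN1 was at 146.66, 133.49 and 161.91 TPM in siVCPIP1 and at 156.47, 147.04 and 170.44 TPM in siControl. Its groups overlapped (log2 change -0.10, SE 0.13), and the sign turned under median-of-ratios scaling, quantile normalization and the GC and length correction.

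TSPAN15 belongs to the TspanC8 group, which escorts the protease ADAM10 to the cell surface. It was at 18.66, 15.96 and 21.55 TPM in siVCPIP1 and at 25.02, 27.31 and 26.91 TPM in siControl, lower in every siVCPIP1 library (70.9% of the siControl mean, log2 change -0.48, SE 0.17). With 1 library left out at a time the change was -0.38 to -0.59, and it was positive under median-of-ratios scaling (0.69) and quantile normalization (0.57). TSPAN13, reported to bind voltage-gated calcium channels, was at 0.03, 0.10 and 0.19 TPM in siVCPIP1 and at 2.96, 3.09 and 2.10 TPM in siControl. It was lower in every siVCPIP1 library (3.93% of the siControl mean, log2 change -1.74, SE 0.14, or -3.83 with a pseudocount of 0.1), and it turned to 0.41 after the GC and length correction with a pseudocount of 1 and stayed at -1.26 with a pseudocount of 0.1.

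Counted together, and only as a description, 6 of the 10 members were under an adjusted p of 0.05 (limma) and lower in siVCPIP1, where 66.0% of the 10966 genes tested were, and 1, CD151, was under it and higher, where 15.0% were. Genes tested averaged at least 1 TPM over all 6 libraries, and TSPAN13 did so through its siControl values alone. With no such filter the members again numbered 6 and 1, where 8635 and 1787 of 15824 genes were lower and higher. Without siVCPIP1 replicate 3, CD81 joined CD151, and without siVCPIP1 replicate 1 or 2 or siControl replicate 2 or 3, TSPAN15 left the lower 6. The groups did not overlap, with siVCPIP1 lower, for 6 members (67.9% of all genes), and with siVCPIP1 higher for CD81 and CD151 (18.2% of all genes). Nothing is read from these counts, since the contrast was used to choose the members. The median log2 change was -0.59 over the members and -1.12 over all genes tested, and 4 members lay below the median of all genes. In 9 of the 10 members siVCPIP1 replicate 3 was the siVCPIP1 library nearest to the siControl mean, and for CD63 it was replicate 2. The share of all genes for which this held was not computed. Replicate 3 also lay nearest to siControl in its median TPM over all genes, at 2.26 against 1.26 and 1.24 in siVCPIP1 replicates 1 and 2. The count is therefore not a trait of the members.

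In TPM as deposited, the sum over the 10 members hardly differed while its make-up did. CD63, CD151 and CD81, most of that sum, had log2 changes of 1.34, 1.85 and 1.44 under median-of-ratios scaling. In the same order they were at -0.08, 0.57 and 0.19 with quantile normalization, and 0.32, 0.15 and -0.29 after the GC and length correction. The even sum therefore depends on the scaling, and it was computed for the deposited TPM only. The sum was 2937, 2734 and 2792 TPM in siVCPIP1 and 2893, 2696 and 2765 TPM in siControl, overlapping ranges. CD9, TSPAN3, TSPAN8 and TSPAN13 together gave 12.76, 10.65 and 37.53 TPM in siVCPIP1 and 283.45, 348.16 and 319.45 TPM in siControl. CD9 held 0.180 ± 0.190% of the sum in siVCPIP1 and 4.92 ± 0.598% in siControl (SD, n = 3 each). CD151 held 26.0 ± 2.25% in siVCPIP1 and 17.2 ± 2.10% in siControl, and CD63 46.7 ± 1.39% in siVCPIP1 and 44.1 ± 1.37% in siControl.

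**Figure D2:**
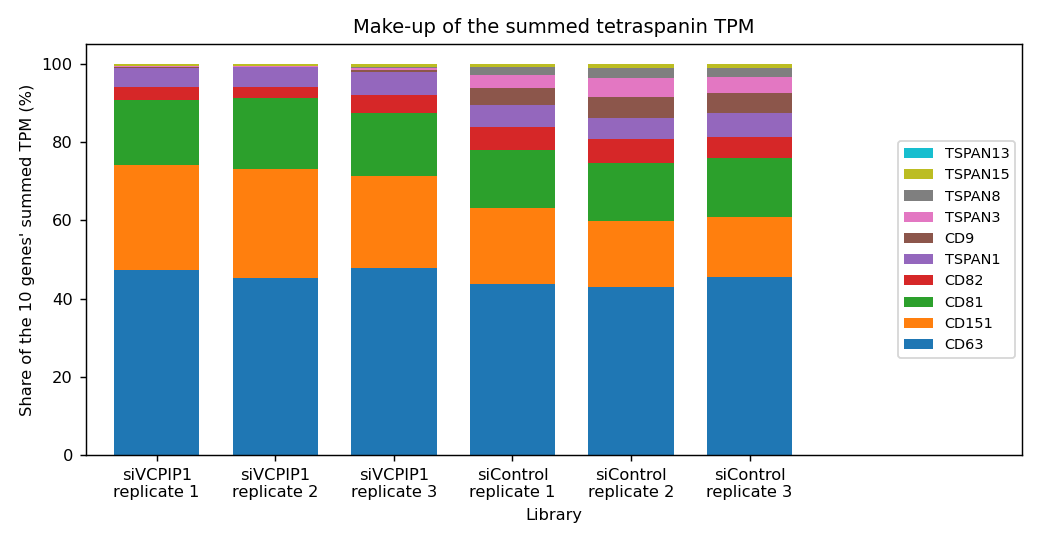
Share of the summed TPM of the 10 tetraspanins held by each gene (%), as stacked bars for each library, siVCPIP1 left of siControl. CD63, CD151 and CD81 fill most of every bar, and the CD9 band is 0.180% on average in siVCPIP1 and 4.92% in siControl.

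A ratio of 2 genes within a library is not altered by a factor applied to that whole library, as in median-of-ratios scaling, though quantile normalization and the GC and length correction can alter it. CD9 over CD81 was 0.00471, 0.00341 and 0.0246 in siVCPIP1 and 0.289, 0.371 and 0.327 in siControl, so the siControl mean was 30.2 times the siVCPIP1 mean. TSPAN8 over TSPAN1 was 0.0210, 0.0160 and 0.0606 in siVCPIP1 and 0.363, 0.488 and 0.386 in siControl, 12.7 times higher in siControl. CD82 over CD81 was 0.212 ± 0.0661 in siVCPIP1 and 0.386 ± 0.0257 in siControl, and TSPAN15 over CD81 was 0.0392 ± 0.00786 in siVCPIP1 and 0.0636 ± 0.00521 in siControl (SD, n = 3 each). None of these ratios overlapped between the groups in the deposited TPM, but under quantile normalization the change of TSPAN15 (0.57) was above that of CD81 (0.19). The ratios describe unequal change between genes, and do not show that CD81 or TSPAN1 kept its level. They are no test, since the fall of CD9 was used to choose the members.

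The members' changes ran with the GC content of their transcripts. CD9, TSPAN3, TSPAN8 and TSPAN13, the members with a log2 change below -1, had transcripts of 40.9% to 48.0% GC. The other 6 members had 52.0% to 63.1%, a split noticed after the values were seen. In their 3' UTRs the GC content was 30.0% to 46.4% in the first set and 45.6% to 62.4% in the second. Over the 10 members r was 0.78 and rho 0.83 between GC content and log2 change, and over the 10710 genes with a GC value r was 0.72 and rho 0.74. These points share the same 6 libraries, so the correlations are descriptions with no p. All genes with a GC value were also ranked by it and cut into 10 bins. The bin that holds CD9 (47.8% GC) had a median log2 change of -1.42, and 1 of its 1071 genes was lower than CD9. Like its rank among all genes, this rank is a description, since the large fall of CD9 was used to choose the members. TSPAN3, in the same bin, had 29 of 1071 genes below it, and TSPAN8, at 40.9% GC, had 61 of 1070 below it, against a median of -2.17. TSPAN13, at 44.4% GC, lay near the middle of its bin, 0.05 above a median of -1.79. CD81 differed from the median of its bin by -0.01 and CD151 by 0.14. The remaining members lay further from theirs, TSPAN1 by 0.84, CD63 by 0.53, CD82 by -0.56 and TSPAN15 by -0.35. The coding transcripts of CD9 range over 42.7% to 55.4% GC, and which of them these cells used is not known from TPM per gene.

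**Figure D3:**
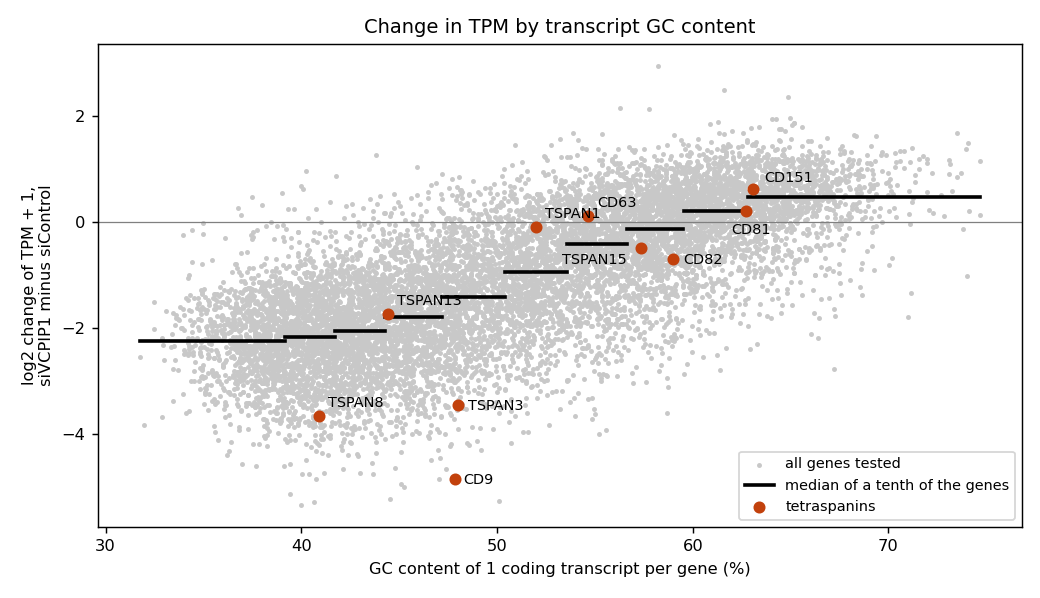
Log2 change of TPM + 1, siVCPIP1 minus siControl, against the GC content of 1 coding transcript per gene (%), for all genes tested (grey), with medians of 10 GC bins (black lines) and the tetraspanins in red-brown. CD9, TSPAN3 and TSPAN8 lie far under the median line of their bin, and TSPAN13, CD81 and CD151 lie close to theirs. CD82 and TSPAN15 lie somewhat under theirs, and TSPAN1 and CD63 above.

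The median of all genes and the members' changes differed between scalings, and not always in the same direction. The median change of all genes was -1.12 on the deposited values, -0.14 once libraries were scaled by median of ratios (1 factor per library), 0.04 after quantile normalization (all libraries given 1 distribution) and 0.06 after a correction that fits each library's deviations on transcript GC content and length. CD9 kept its direction and stayed the lowest member under each, at -3.77 with median-of-ratios scaling, -3.98 with quantile normalization and -3.25 with the GC and length correction. TSPAN3 was at -2.28, -2.67 and -1.94 in the same order, and TSPAN8 at -2.57, -2.60 and -1.28. CD81 was 1.44 with median-of-ratios scaling, 0.19 with quantile normalization and -0.29 with the GC and length correction, so its sign depends on the scaling. CD63 was 1.34, -0.08 and 0.32 under these scalings, and its sign turned with quantile normalization.

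**Figure D4:**
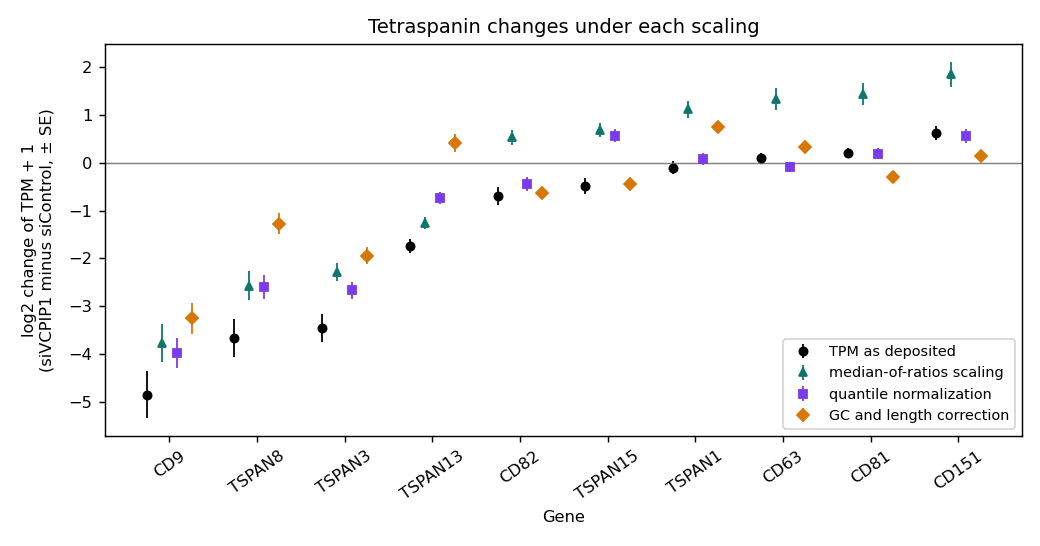
Log2 change of TPM + 1 (siVCPIP1 minus siControl, bars are SE) of each tetraspanin in TPM as deposited and under the 3 other scalings. CD9, TSPAN8 and TSPAN3 lie below 0 under all of them, and the signs of TSPAN13, CD82, TSPAN15, TSPAN1, CD63 and CD81 differ between scalings.

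Of 23 other human tetraspanins, 20 were in the table and 10 passed the filter of a mean of 1 TPM. That mean is over all 6 libraries, so a gene can pass through high siControl values. Genes such as ADAM10, ADAM17, VPS4B, ZDHHC13 and ZDHHC17 in the lists below averaged under 1 TPM in siVCPIP1. Of the 10 other tetraspanins that passed, 5 fell (66.0% of all genes did), 3 rose (15.0% of all genes did) and 2 did not pass the test, with a median log2 change of -0.31 against -1.12 over all genes. After the GC and length correction 2 were lower and 3 higher, where 3401 and 3984 of 10710 genes were. The rises were in TSPAN4, at 217 ± 21.4 TPM in siVCPIP1 and 143 ± 19.5 TPM in siControl (log2 change 0.60, adjusted p = 0.0044, limma), TSPAN11 (0.91) and TSPAN33 (0.95), and TSPAN4 had a change of 0.02 after the GC and length correction. TSPAN33 and TSPAN14, like TSPAN15, are among the TspanC8 partners of ADAM10. TSPAN33 was at 7.17 ± 0.157 TPM in siVCPIP1 and 3.24 ± 0.279 TPM in siControl. TSPAN14 was at 5.04 ± 1.98 TPM in siVCPIP1 and 12.3 ± 0.234 TPM in siControl (-1.19). TSPAN14 lost its call with median-of-ratios scaling (-0.11) and the GC and length correction (-0.14), and was positive under quantile normalization (0.36). TSPAN6 (-2.02) and TSPAN31 (-1.38) fell in TPM as deposited and turned to 0.42 and 0.29 after the GC and length correction. TSPAN9 (-0.67) and TSPAN17 (-0.40) fell, and both were positive under median-of-ratios scaling and quantile normalization. TSPAN9 lost its call without siControl replicate 1 (-0.61), and TSPAN17 without replicate 1 or 2 of either group (-0.35 to -0.40). TSPAN10 (-0.21) and ROM1 (0.46) did not pass the test in TPM as deposited. TSPAN10 passed it at -0.75 after the GC and length correction, 0.59 with median-of-ratios scaling and 1.20 with quantile normalization. ROM1 passed it without siVCPIP1 replicate 3 (0.49) and at 1.46 and 1.90 under the same 2 scalings.

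The laminin-binding integrins, to which CD151 binds, split between subunits. ITGB1, the beta subunit shared by many integrins, fell to 5.98, 4.36 and 17.02 TPM in siVCPIP1, against 338.72, 394.63 and 331.43 TPM in siControl (log2 change -5.34, SE 0.39, adjusted p = 2.0e-05, limma). ITGA6 fell to 2.08 ± 1.16 TPM in siVCPIP1, against 63.2 ± 15.1 TPM in siControl. ITGA3, the main alpha partner of CD151, was at 151 ± 11.5 TPM in siVCPIP1 and 148 ± 10.2 TPM in siControl, ITGB4 at 1160 ± 104 TPM in siVCPIP1 and 1348 ± 110 TPM in siControl, and ITGA7 had a log2 change of -0.25; these 3 did not pass the test in TPM as deposited. ITGB4 passed it without siVCPIP1 replicate 3 (-0.27) and with quantile normalization (-0.33), ITGA3 after the GC and length correction (0.38), and all 3 were higher with median-of-ratios scaling (0.61 to 1.24). Of all genes 66.0% fell, against 2 of these 5, and after the GC and length correction ITGB1 was at -3.07 and ITGA6 at -2.46.

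Of 9 surface partners tested, 7 fell (66.0% of all genes), 1 rose (15.0% of all genes) and 1 did not pass the test, with a median of -1.77. After the GC and length correction 3 were lower, 1 was higher and 5 did not pass the test. Over all 10710 genes so corrected, 3401 were lower and 3984 higher. EPCAM, an epithelial adhesion protein found with CD9 and TSPAN8, fell to 5.96 ± 4.97 TPM in siVCPIP1, against 172 ± 21.2 TPM in siControl (log2 change -4.85). ADAM10, the protease that TSPAN15 escorts, fell to 0.773 ± 0.50 TPM in siVCPIP1, against 18.2 ± 3.86 TPM in siControl, and at -1.56 it was still past the threshold after the GC and length correction. The other falls named were CLDN1 (-2.59), ADAM17 (-2.38), CD44 (-1.77) and HBEGF (-0.96); after that correction CLDN1, ADAM17 and CD44 no longer passed the test, and HBEGF turned to 0.27. TIMP1, a metalloprotease inhibitor that binds CD63, rose to 829 ± 128 TPM in siVCPIP1, against 448 ± 32.7 TPM in siControl (log2 change 0.88). IGSF8, the EWI partner of CD9 and CD81, was at 17.01 to 20.54 TPM in siVCPIP1 and 19.54 to 27.92 TPM in siControl and did not pass the test (log2 change -0.31). It passed without siVCPIP1 replicate 3 (-0.37) and after the GC and length correction (-0.60), and it passed as higher with median-of-ratios scaling (0.87) and quantile normalization (0.78).

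Of 20 vesicle genes tested, 16 fell (66.0% of all genes), 2 rose (15.0% of all genes) and 2 did not pass the test, with a median of -1.72. After the GC and length correction 9 were lower and 7 higher, with a median of -0.13. Over all genes 3401 of 10710 were then lower and 3984 higher, with a median of 0.06. SDCBP, which encodes syntenin and binds CD63, fell to 5.70 ± 4.73 TPM in siVCPIP1, against 100.1 ± 15.0 TPM in siControl. PDCD6IP (ALIX, -3.71), LAMP2 (-3.46), TSG101 (-3.32), STAM (-2.95) and VPS4B (-2.45) also fell, and VPS4B alone of these lost its call after the GC and length correction. FLOT1, a lipid raft scaffold, rose to 396 ± 59.0 TPM in siVCPIP1, against 226 ± 16.9 TPM in siControl, and HGS rose by 0.44, losing its call without siVCPIP1 replicate 1 (0.42). FLOT2 (-0.04) and VPS4A (0.10) did not pass the test in TPM as deposited. VPS4A passed it as higher after the GC and length correction (1.07), quantile normalization (0.39) and median-of-ratios scaling (1.32), and FLOT2 under quantile normalization (0.63) and median-of-ratios scaling (1.16).

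DHHC acyltransferases attach the fatty acids that anchor tetraspanins. Of 18 tested, 11 fell (66.0% of all genes), 2 rose (15.0% of all genes) and 5 did not pass the test, with a median of -0.997. With no filter on low values 11 of 22 fell and 2 rose, where 8635 and 1787 of 15824 genes did. After the GC and length correction 2 of the 18 were lower and 9 higher, where 3401 and 3984 of 10710 genes were. ZDHHC2, which acts on CD9 and CD151, fell to 2.17 ± 0.406 TPM in siVCPIP1, against 11.9 ± 0.848 TPM in siControl (log2 change -2.03), and was at 0.05 after the GC and length correction. ZDHHC13, ZDHHC20, ZDHHC6, ZDHHC17 and ZDHHC7 fell by 2.05 to 2.95 on the log2 scale, and after that correction ZDHHC6 (-0.41) and ZDHHC7 (-0.89) alone of these still passed the test. ZDHHC12 (0.68) and ZDHHC16 (0.45) rose, ZDHHC12 at -0.01 after that correction, and ZDHHC4, ZDHHC8, ZDHHC11, ZDHHC18 and ZDHHC24 did not pass the test in TPM as deposited. All 5 passed it as higher with median-of-ratios scaling (0.43 to 1.76) and quantile normalization (0.93 to 1.23). ZDHHC16 lost its call without siVCPIP1 replicate 1 or siControl replicate 1 or 3 (0.40 to 0.46). ZDHHC18 (-0.34) gained one without siVCPIP1 replicate 3, and ZDHHC24 without siVCPIP1 replicate 3 (0.63) or siControl replicate 1 (0.78).

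**Figure D5:**
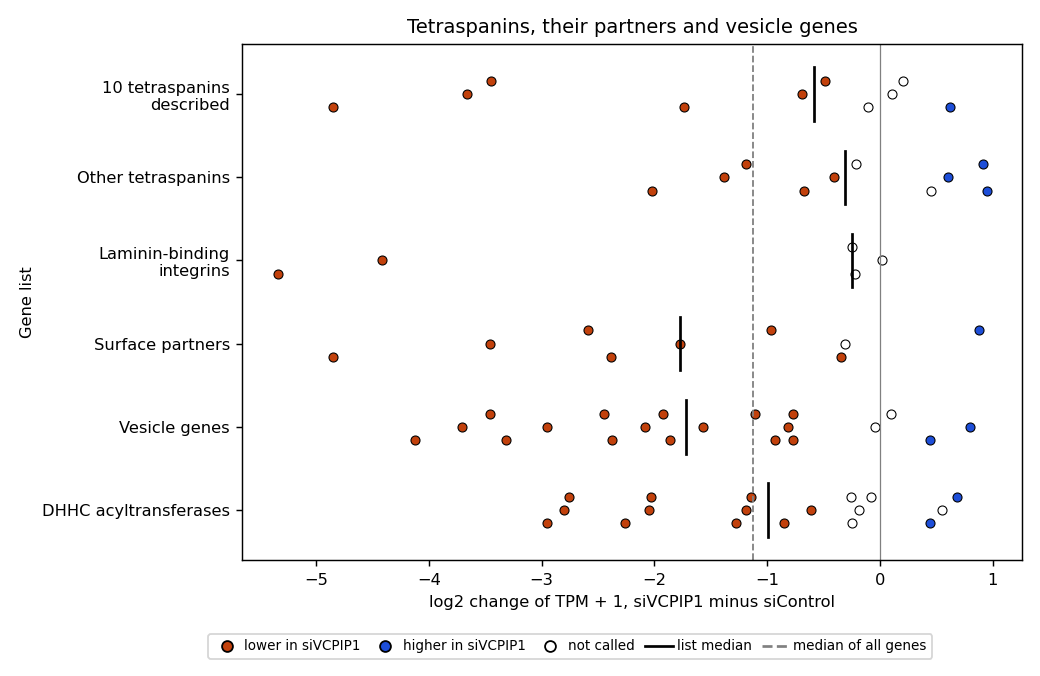
Log2 change of TPM + 1, siVCPIP1 minus siControl, of each gene in the tetraspanin, integrin, surface partner, vesicle and acyltransferase lists, with filled points for genes past the threshold, a black line at each list's median and a dashed line at the median of all genes (-1.12). The members' median is -0.59 and that of the vesicle genes is -1.72.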

How the data were processed

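RNA was sequenced from 6 libraries of AsPC-1 cells, 3 siVCPIP1 and 3 siControl, 48 h after transfection. The deposited table holds TPM per gene symbol, computed by the authors, per the file headers. Per the submitters' processing notes, the genome build was GRCh38.p13. Which aligner, counting tool and strand setting were used is not given in the sources used here, so a gene and an antisense partner cannot be told apart. TPM keeps no depth, so no interval or floor is given.

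The members and gene lists were chosen with earlier results of these data known. The 10966 genes that averaged 1 TPM or more were compared on log2(TPM + 1) using R 4.3.3 and limma 3.58.1 (moderated by eBayes with a trend, two-sided, Benjamini-Hochberg over all genes tested, threshold 0.05), which was tested on simulated data. Named genes were all members, VCPIP1, every other tetraspanin past the filter, and from each list up to 6 called genes with the largest change plus those not called or in the minority direction; of CLDN7 and PTGFRN no value is given. Alternatives were other pseudocounts, filters, scalings, a GC and length correction (natural splines with 5 and 3 degrees of freedom), a replicate block and leaving out each library. GC content came from 1 coding transcript per gene (GENCODE 29), with a value for 10710 genes. The correction with a pseudocount of 0.1 was chosen after seeing the data.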

Additional observations from a re-analysis of the deposited data

How the results depend on the processing

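As deposited, 7241 genes were lower and 1646 higher, against 4951 and 4416 with median-of-ratios scaling, 4258 and 4625 with quantile normalization and 3401 and 3984 with the GC and length correction; a minimum of 5 TPM gave 4679 lower, with TSPAN13 not tested. Members past the threshold and higher numbered 1 as deposited (CD151) and 6 with median-of-ratios scaling. They numbered 2 with quantile normalization (CD151 and TSPAN15) and 2 with the GC and length correction at either pseudocount (CD63 and TSPAN1). CD151 (0.15, or 0.12 at a pseudocount of 0.1) lost its call after that correction. Lower members numbered 6 as deposited, 4 with median-of-ratios scaling and 5 with quantile normalization. With the GC and length correction they numbered 6, with CD81 in and TSPAN13 out, and 7 at a pseudocount of 0.1, with TSPAN13 back in. Over all genes at that pseudocount, 3323 of 10710 were lower and 3858 higher. Other tetraspanins lower and higher numbered 5 and 3 as deposited, 1 and 7 with median-of-ratios scaling, 0 and 8 with quantile normalization, 2 and 3 with the GC and length correction and 9 and 5 with no filter. With no filter 8635 of all 15824 genes were lower and 1787 higher. Partner, vesicle and acyltransferase genes numbered 36 lower and 5 higher as deposited, and 38 and 5 with no filter. They numbered 25 lower and 22 higher under median-of-ratios scaling, 27 and 17 under quantile normalization, and 16 and 18 after the GC and length correction.

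Among genes past the threshold in either setting, signs turned with median-of-ratios scaling for CD82 (0.53), TSPAN1 (1.12), TSPAN15 (0.69), TSPAN9 (0.39), TSPAN10 (0.59), TSPAN17 (0.80), ITGA7 (0.61), ITGB4 (1.01), IGSF8 (0.87), HBEGF (0.11), FLOT2 (1.16), ZDHHC4 (1.10), ZDHHC8 (0.88), ZDHHC11 (0.43) and ZDHHC18 (0.99). They turned with quantile normalization for TSPAN15 (0.57), TSPAN9 (0.89), TSPAN10 (1.20), TSPAN14 (0.36), TSPAN17 (0.28), ITGA7 (1.21), IGSF8 (0.78), HBEGF (0.59), FLOT2 (0.63), ZDHHC4 (0.93), ZDHHC8 (1.15), ZDHHC11 (1.04) and ZDHHC18 (0.99). They turned with the GC and length correction for CD81 (-0.29, or -0.32 at a pseudocount of 0.1), TSPAN1 (0.76, or 0.87), TSPAN13 (0.41), VCPIP1 (0.27), TSPAN6 (0.42), TSPAN31 (0.29), HBEGF (0.27), ZDHHC2 (0.053), ZDHHC4 (0.85), ZDHHC11 (0.41), ZDHHC12 (-0.013) and ZDHHC18 (0.33). Genes past it in neither setting also turned: CD63 (-0.08) and TSPAN1 (0.08) with quantile normalization, and ITGA7 (0.07), ITGB4 (0.050) and FLOT2 (0.15) with the GC and length correction. The causes were not tested.

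Leaving out 1 library at a time gave 6742 to 7772 genes lower and 1245 to 1851 higher, 5 to 6 members lower and 1 to 2 higher (2 without siVCPIP1 replicate 3, which added CD81), 3 to 5 other tetraspanins lower (3 without siControl replicate 1) and 3 to 4 higher, and 34 to 39 partner-list genes lower and 3 to 6 higher (3 without siVCPIP1 replicate 1). The siControl order kept 8 to 10 of 10 ranks (8 without siControl replicate 1 or 2). Libraries with the same number deviated from their group means with correlations of 0.53, -0.27 and 0.16. Deviations within a group of 3 offset one another, so these correlations cannot settle whether the numbers pair libraries. A replicate block gave 7085 genes lower and 1586 higher, members at 6 and 1, other tetraspanins at 5 and 3, and 36 and 6 in the partner lists, where ZDHHC24 gained a call.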
